A study of Mus musculus with 108 samples.

Results

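Poly(A)-selected RNA was compared between 8 metaphase II (MII) eggs and 7 germinal vesicle (GV) oocytes of control mice, 1 library per oocyte. These 15 control polyA libraries, picked by library type, stage and genotype in the sample titles, are 15 of the 64 polyA libraries and of the 108 samples in the series. The series set oocytes lacking Exosc10, a catalytic subunit of the nuclear RNA exosome, against oocytes of control females. The controls describe the ordinary change of polyadenylated RNA during meiotic maturation. The V numbers in the titles were read here as the females that gave the oocytes, which the labels do not state. On that reading GV oocytes, handled in M2 medium, came from 2 females (3 oocytes of V856 and 4 of V889), and MII eggs, taken from oviducts, came from 3 other females (2 eggs of V836, 4 of V853 and 2 of V896). Beside them stand 8 control oocytes after 3 hours in M2 medium (GV3h, females V951, V982 and V995), and RiboMinus libraries, made without poly(A) selection, of 8 control GV oocytes (V1132 and V1133) and 3 control MII eggs (V1145). All were labelled control. Strain, age, hormone treatment and the alleles carried by the controls are not given in the sources used here. Each female gave oocytes of 1 stage, so stage cannot be compared within a female, and it cannot be told apart from the site of collection. Oocytes of a female are not independent animals, so p-values over oocytes measure the spread between these samples, and counts from a fit on RNA summed per female are given where they bear on a result.

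A fully grown mouse oocyte rests in meiotic prophase and stops transcribing before it resumes meiosis, so its messages change afterwards through decay and through the length of their poly(A) tails. Many messages are stored with a short tail and gain a long one at maturation, often through the cytoplasmic polyadenylation element (CPE), a short uridine-rich motif near the 3′ end that is bound by CPEB proteins. Others lose their tail to the CCR4-NOT deadenylase and are degraded. Oligo(dT) beads select RNA by its tail, so in these libraries a longer tail and more RNA cannot be told apart, nor can a shorter tail and less RNA.

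Total gene counts were 5535240 to 6700256 in GV oocytes and 6863768 to 8459101 in MII eggs. The oocyte markers Gdf9, Bmp15, Zp1, Zp2, Zp3, Dppa3 and Nlrp5 were detected in all 15 libraries. Of 8 blood markers none passed the filter on low counts, and their summed level was at most 3.90 CPM (counts relative to the library total) at GV and 3.03 CPM at MII. Of 8 oviduct epithelium markers only Cdh1, which oocytes also express, passed it; it was called higher in eggs (0.71, edgeR adjusted p = 5.91e-05), from 212 ± 32.1 CPM at GV to 347 ± 60.7 CPM at MII. The other 7 oviduct markers summed to 0.468 to 3.10 CPM at GV and 0.135 to 4.31 CPM at MII. Of 16 cumulus and granulosa markers 3 passed the filter (Cyp19a1, Kitl and Nr5a2), and the summed level of all 16 was 87.6 to 124 CPM at GV and 86.3 to 135 CPM at MII. Cyp19a1, aromatase, rose by 1.42 (SE 0.17, edgeR adjusted p = 4.44e-07) in eggs and had mean levels of 30.4 CPM in GV oocytes of V856 and 36.4 CPM in those of V889. Nr5a2, a nuclear receptor, fell by 0.68 (SE 0.17, edgeR adjusted p = 0.00214), a call lost on RNA summed per female (edgeR adjusted p = 0.134) and without V889 (edgeR adjusted p = 0.202), with 28.1 and 39.0 CPM in the same GV females. Kitl, Kit ligand, was called higher (0.67, edgeR adjusted p = 0.0445), a call also lost on RNA summed per female (edgeR adjusted p = 0.244). The 13 markers that did not pass the filter summed to 28.8 to 33.1 CPM in GV oocytes of V856, 0.866 to 5.22 CPM in those of V889 and 0.583 to 7.57 CPM in eggs. In the 3 oocytes of V856, Inha, the inhibin alpha subunit, had 106, 111 and 93 counts and Hsd17b1, an estradiol-forming enzyme, had 39, 54 and 31, while neither exceeded 2 counts in the 4 oocytes of V889 and both were at 0 in every egg. Among further granulosa markers, Amh had 6, 1 and 7 counts in the same 3 oocytes of V856 and 0 in those of V889. Foxl2 had 1 count in V856_1 and 0 in the other GV oocytes. Fshr had 0, 1 and 6 counts in V856 and 2, 0, 0 and 0 in V889. Ptgs2 did not follow this split, with 0, 1 and 45 counts in V856 and 2, 0, 2 and 21 in V889. It also had 14 counts in egg V836_2 and 9 in egg V896_2. Egg V836_2 had the lowest correlation of log2 CPM with the other eggs (median r = 0.913, against 0.941 to 0.954 for the others, across genes), and leaving it out gave 8159 calls in place of 7961.

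The change from GV to MII reached most of the transcriptome. Of 12561 genes tested, 7961 were called at an adjusted p under 0.05 (63.4%), 3782 of them higher at MII (30.1% of all tested) and 4179 lower (33.3%). On RNA summed per female, 6183 of the 7961 were called in the same direction and 0 in the opposite one. Falls were larger than rises. Genes called at least 2-fold lower numbered 3266 against 1945 higher, those past 4-fold 1814 against 141, and those past 8-fold 852 against 5. The values of GV and MII oocytes did not overlap for 4805 genes (38.3%), 2100 of them higher at MII and 2705 lower. Of the 852 falls past 8-fold, 48 were in genes with at most 3 counts in every egg. These directions are relative to the other RNA of the library, since the spike-in RNA that the labels say was added to each lysate was not analysed here. With TMM scaling the median change over all tested genes was -0.08 on the log2 scale. With library totals it was -0.46, the share of calls that were higher went from 47.5% to 31.6%, and 2507 genes were called higher.

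**Figure D1:**
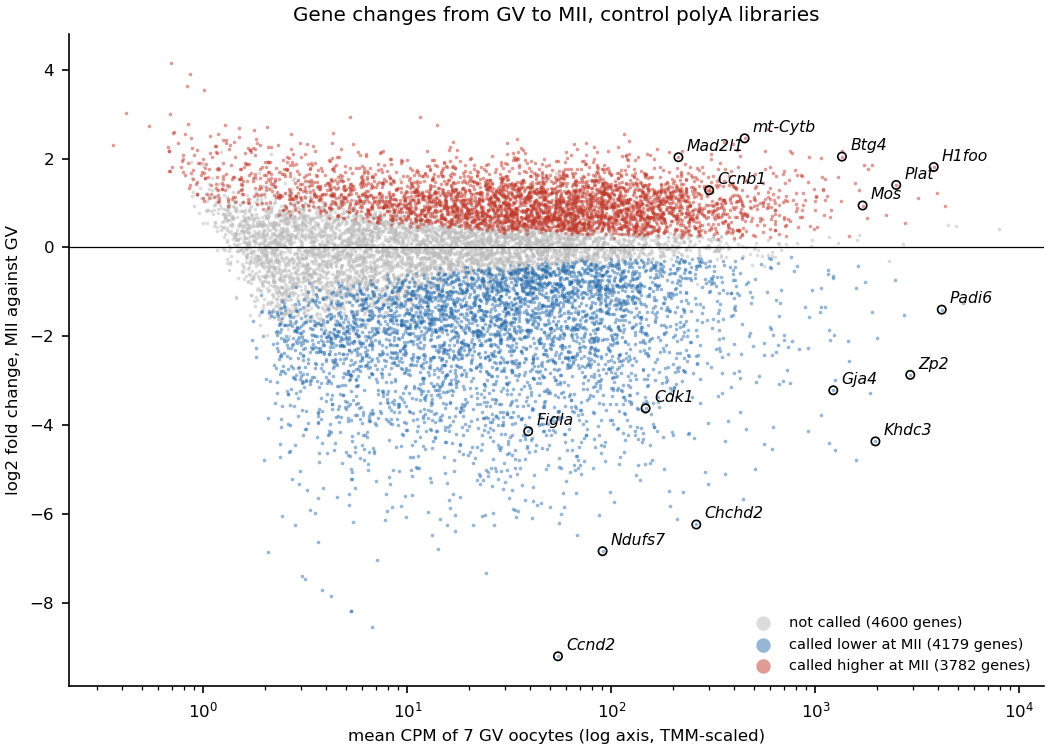
Log2 fold change of each tested gene (MII against GV, y axis) against its mean CPM in the 7 GV oocytes (x axis, log scale), 1 point per gene, with 16 genes named. Rises past 4-fold are few (141 genes), while 852 genes fell past 8-fold; the lowest point, Ccnd2, had at most 3 counts in any egg, so its position depends on the fit's prior count.

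Genes called higher took up most of the counts in eggs. They held 44.5% to 46.9% of counts in GV oocytes and 71.2% to 78.1% in eggs. Genes called lower held 33.8% to 36.6% and 8.49% to 11.3%. These shares describe genes chosen for their change. By GV level, the share of genes called higher was 17.2% in the lowest of 5 equal groups (GV mean 0.361 to 5.04 CPM) and 48.9% in the highest (above 84.6 CPM), and the share called lower was 17.5%, 33.9%, 39.7%, 39.5% and 35.9% from the lowest group to the highest, with its highest values in the middle groups. Among protein-coding genes 31.2% were called higher and 33.5% lower, and among long intergenic RNAs 20.2% and 35.5%.

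**Figure D2:**
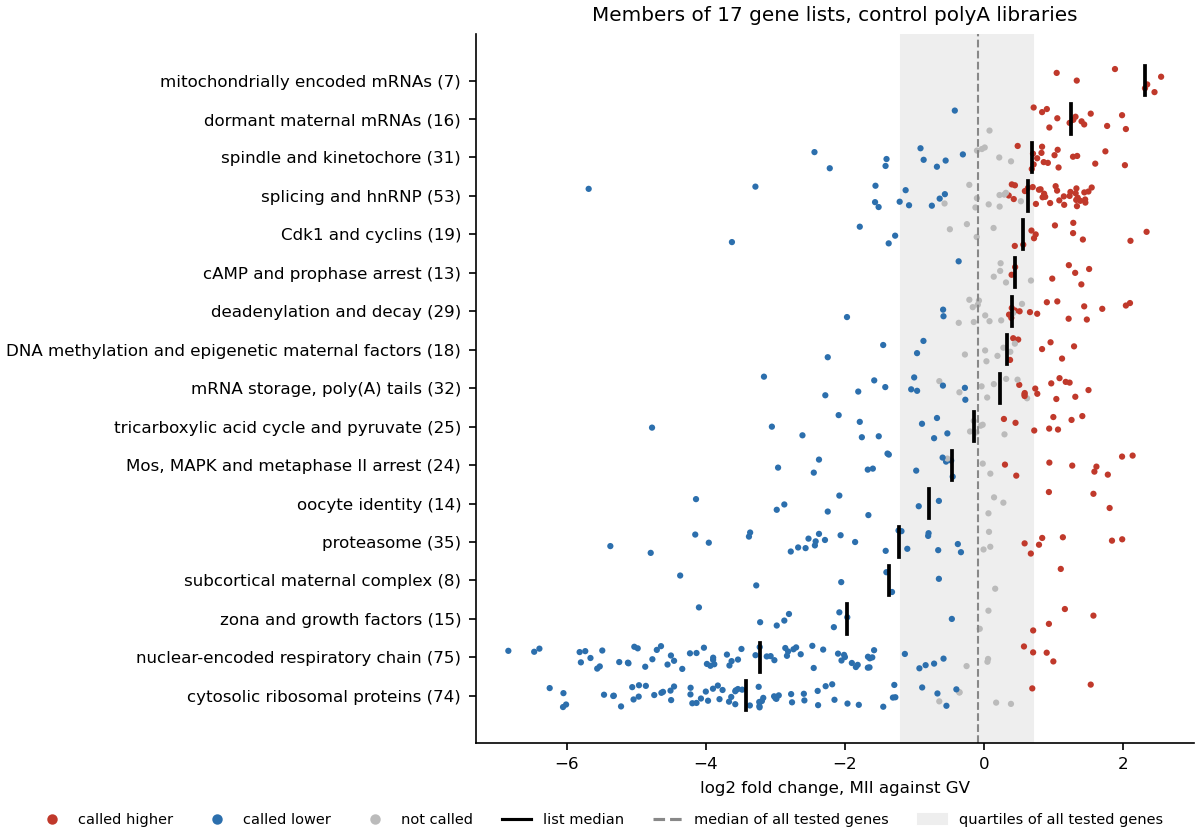
Log2 fold change (x axis, MII against GV) of each tested member of 17 gene lists, ordered by list median (black bar), with the median (dashed line) and quartiles (grey band) of all tested genes. Mitochondrially encoded mRNAs and dormant maternal mRNAs lie highest, and nuclear-encoded respiratory chain and ribosomal protein genes lie lowest.

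In the results that follow, levels of single genes are CPM with TMM scaling, and summed levels of a list are CPM of library totals. Single-gene levels are given as the lowest, median and highest oocyte or as mean ± SD (n = 7 at GV and 8 at MII). Changes are log2 fold changes of MII against GV with their standard error (SE). The number of a list's members called in polyA libraries is to be read beside the 30.1% of all tested genes called higher and the 33.3% called lower. Lists share members, such as Zp1, Zp2 and Zp3 in those of oocyte identity and the zona. Cnot7, Cnot6l and Dcp1a are likewise in those of dormant messages and decay. The list counts are therefore not separate results.

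Messages known to be stored and then translated during maturation were higher in the polyA libraries of eggs. Of 16 such mRNAs, all tested, 14 were called higher, 10 of them at least 2-fold, 1 was called lower and Dcp2 was not called, and the list's median was 1.26 beside -0.08 over all tested genes. The 14 were called higher under library totals too. Btg4 (chr9:51060901-51119875), the adaptor that brings the CCR4-NOT deadenylase to messages, had 1108, 1366 and 1643 CPM in GV oocytes and 4279, 5520 and 7026 CPM in MII eggs, and it rose by 2.05 (SE 0.12) on the log2 scale (edgeR adjusted p = 3.15e-11). Cdc20, the activator of the anaphase-promoting complex, had 64.5, 81.3 and 105 CPM in GV oocytes and 232, 308 and 492.7 CPM in MII eggs, and rose by 1.99 (SE 0.15) on the log2 scale (edgeR adjusted p = 1.67e-09). Plat, the tissue plasminogen activator whose message is a long-studied case of this regulation in mouse oocytes, had 2034, 2448 and 2896 CPM in GV oocytes and 5235, 6387 and 8754 CPM in MII eggs, and rose by 1.41 (SE 0.11) on the log2 scale (edgeR adjusted p = 1.15e-09). For all 3 the stages did not overlap.

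Ccnb1, the cyclin B1 partner of Cdk1, had 262, 301 and 339.5 CPM in GV oocytes and 624, 721 and 923 CPM in MII eggs, and rose by 1.29 (SE 0.10) on the log2 scale (edgeR adjusted p = 1.12e-09). Mos (chr4:3870657-3872105), the kinase that starts the MAP kinase cascade of metaphase II arrest, had 1488, 1652 and 2120 CPM in GV oocytes and 2359, 3052 and 4822 CPM in MII eggs, and rose by 0.94 (SE 0.13) on the log2 scale (edgeR adjusted p = 3.46e-06). Every egg was above every GV oocyte for both genes. Dazl, an RNA-binding protein that promotes translation, rose by 1.236 (SE 0.14, edgeR adjusted p = 2.48e-07) and Tpx2, a spindle assembly factor, by 0.72 (SE 0.09, edgeR adjusted p = 1.76e-06). Slbp, which binds histone messages, rose by 1.78, Orc6, an origin recognition subunit, by 1.54 and the cytokine gene Il7 by 1.32. Nusap1, a spindle-associated protein, was the member called lower, with 205, 256 and 318 CPM in GV oocytes and 168, 197 and 214 CPM in MII eggs, a fall of 0.42 (edgeR adjusted p = 0.00193) that was lost on RNA summed per female (edgeR adjusted p = 0.148) and without V889 (0.271), and the stages overlapped.

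The 3′ ends of these messages were read from the GENCODE M21 annotation of the GRCm38 (mm10) genome. The following stretches of 30 bases lie in the last 100 bases of the annotated 3′ untranslated region of 6 members and, from the list of zona and growth factor genes, of Gdf9, which rose, and Bmp6, which fell, and capitals mark the CPE, searched as TTTTAT or TTTTAAT on the transcript strand. They are shown because tail regulation through this motif is the textbook route for such messages.
Plat, chr8:22782748-22782777, plus strand: tatttataTTTTAATctattttagttttta
Btg4, chr9:51119801-51119830, plus strand: aaatccctTTTTATgtctttttaaaagttt
Cnot7, chr8:40493036-40493065, minus strand: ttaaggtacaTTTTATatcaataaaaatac
Dcp1a, chr14:30526989-30527018, plus strand: atcctaaaTTTTATatgtttgcaaatatat
Orc6, chr8:85307982-85308011, plus strand: ctcagacaTTTTATttggttttgtggtttt
Bub1b, chr2:118641525-118641554, plus strand: ttttgtaaTTTTATaacatgtactctcctt
Gdf9, chr11:53437858-53437887, plus strand: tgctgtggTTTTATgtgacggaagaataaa
Bmp6, chr13:38500216-38500245, plus strand: attgtctaTTTTATatccattttgctgtaa
The Cnot7 stretch ends at the last base of the transcript used, and the annotated gene runs on to chr8:40492540. The Cnot7 motif starts 9 bases before the AATAAA polyadenylation signal. In Gdf9 the motif starts 16 bases and in Plat 60 bases before it. Bub1b, Dcp1a and Orc6 each hold 2 motifs in the window, and the stretch shown holds the first. Bmp6, a growth factor, fell by 0.46 (edgeR adjusted p = 0.0348), a call lost on RNA summed per female (edgeR adjusted p = 0.322), and Oosp3, of the same list, held the motif and rose by 1.17 (edgeR adjusted p = 2.12e-06). Mos, Ccnb1, Tpx2, Dazl, Cnot6l, Slbp, Il7 and Nusap1 held neither form of the motif in this window, which says only that these letters are not there. Of the 16 dormant messages 15 had a window that could be searched, and the 6 shown were those with the motif. The 3′ ends of the remaining members, Cdc20 and Dcp2, are not shown.

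The motif was found more often in genes that were higher at MII. A window could be searched for 10155 tested genes, 87.6% of the protein-coding genes called at least 2-fold lower and 95.7% of those called at least 2-fold higher. A CPE was present in 37.0% of genes called at least 2-fold higher, 27.3% of those higher by less, 18.9% of those not called, 15.3% of those lower by less than 2-fold and 8.82% of those called at least 2-fold lower, beside 20.4% of the 10155 tested genes and 17.9% of all 19356 annotated windows. TTTTAAT can share bases with the AATAAA or ATTAAA signal. Counting only motifs apart from the signal gave 34.2%, 17.4% and 8.17% for genes at least 2-fold higher, not called and at least 2-fold lower. The windows also differed in base composition, with a median A+T content of 69% and 59% in the 2 outer groups. Within windows of 65 to 75% A+T the median change was 0.53 for 1089 genes with a CPE and 0.18 for 2784 without, and within windows of 55 to 65% it was 0.35 for 398 and -0.31 for 2795. Genes are not independent replicates, and no test was made of these shares.

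With TMM scaling more genes of the decay machinery were called higher than lower, and with library totals as many were called lower as higher. Of 31 genes of deadenylation and decay, 29 were tested, 15 were called higher and 3 lower, with a median of 0.40. With library totals the counts were 9 higher and 9 lower, and on RNA summed per female 12 and 1. Cnot8 and Cnot7 are alternative catalytic subunits of the CCR4-NOT deadenylase. Cnot8 had 139.6, 151 and 165 CPM in GV oocytes and 525.7, 649 and 788 CPM in MII eggs, and rose by 2.10 (SE 0.09) on the log2 scale (edgeR adjusted p = 7.50e-13). Cnot7 rose from 556 ± 74.3 CPM at GV to 1516 ± 279 CPM at MII, or by 1.45 (SE 0.12, edgeR adjusted p = 3.15e-09). Cnot6l, a catalytic subunit of the other nuclease family in the complex, rose by 0.91 (SE 0.10, edgeR adjusted p = 2.70e-07). Pan2 and Pan3, the subunits of a second deadenylase, rose by 1.48 and 1.22 (edgeR adjusted p = 2.14e-10 and 1.27e-09), and Dis3l2, an exonuclease of uridylated RNA, by 1.71 (edgeR adjusted p = 4.68e-06).

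Dcp1a, a cofactor of the decapping enzyme, rose from 891 ± 70.8 CPM at GV to 1856 ± 144 CPM at MII, or by 1.06 (SE 0.07, edgeR adjusted p = 4.69e-10). Cnot10, a non-catalytic CCR4-NOT subunit, fell, with 41.5, 54.0 and 68.4 CPM in GV oocytes and 1.46, 14.2 and 24.2 CPM in MII eggs and a change of -1.97 (SE 0.32, edgeR adjusted p = 2.86e-05). Cnot1, the scaffold of the complex, fell by 0.58 (edgeR adjusted p = 0.0213), a call lost on RNA summed per female (edgeR adjusted p = 0.0847). Ythdf2, a reader of m6A-marked RNA, rose by 0.67 (SE 0.14, edgeR adjusted p = 3.42e-04), a call lost with library totals (0.28, edgeR adjusted p = 0.107). Zfp36l2, which binds AU-rich elements, was low at 2.78 ± 0.523 CPM at GV and 2.49 ± 1.17 CPM at MII and was not called (edgeR adjusted p = 0.725). Tut4, a uridylyltransferase, was not tested because no library held more than 14 of its counts.

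Of 33 genes of mRNA storage and poly(A) tail control, 32 were tested, 13 (40.6%) were called higher and 11 (34.4%) lower, beside 30.1% and 33.3% of all tested genes, with a median of 0.23. With library totals 9 were higher and 13 lower, with a median of -0.16, and without V889 the median was 0.003. Zar1l, an oocyte RNA-binding protein, showed the largest fall, with 157, 208 and 224 CPM in GV oocytes and 13.4, 19.6 and 36.5 CPM in MII eggs, and fell by 3.16 (SE 0.18) on the log2 scale (edgeR adjusted p = 4.03e-11). Its relative Zar1 fell by 0.59 (SE 0.14, edgeR adjusted p = 9.96e-04), a call lost on RNA summed per female (edgeR adjusted p = 0.0969) and without V889 (0.163). Cpeb1, which binds the CPE, had 769.7, 940.0 and 1063 CPM in GV oocytes and 246, 307 and 384 CPM in MII eggs, and fell by 1.58 (SE 0.11) on the log2 scale (edgeR adjusted p = 3.23e-10), while its relative Cpeb4 rose by 1.04 (SE 0.20, edgeR adjusted p = 1.44e-04) with overlapping stages. Ybx2, a Y-box protein that packs stored messages, fell from 20.3 ± 2.24 CPM at GV to 4.16 ± 1.77 CPM at MII, or by 2.28 (SE 0.27, edgeR adjusted p = 5.71e-07). Tent2, a cytoplasmic poly(A) polymerase, rose from 24.8 ± 4.45 CPM at GV to 70.6 ± 9.62 CPM at MII, or by 1.51 (SE 0.14, edgeR adjusted p = 1.80e-08). Lsm14b, a component of stored messenger particles, rose by 0.74 (SE 0.11, edgeR adjusted p = 5.35e-06). Among poly(A)-binding proteins, Pabpc1l of the oocyte cytoplasm fell by 0.96 (SE 0.21, edgeR adjusted p = 4.76e-04) with overlapping values. Pabpn1l spread from 636 to 2336 CPM over the eggs, and its call (0.59, edgeR adjusted p = 0.0315) was lost without egg V836_2 (0.35, edgeR adjusted p = 0.0762), with library totals (0.19, 0.442), without V856 (0.51, 0.151), V889 (0.70, 0.106) or V836 (0.39, 0.0595), and on RNA summed per female (edgeR adjusted p = 0.0833).

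The subunits of maturation-promoting factor went in opposite directions. Cdk1 (chr10:69335146-69352938), its kinase, had 118, 160.1 and 169 CPM in GV oocytes and 8.37, 12.3 and 14.4 CPM in MII eggs, so that all 8 eggs were more than 8-fold under the lowest GV oocyte, and it fell by 3.62 (SE 0.14) on the log2 scale (edgeR adjusted p = 2.12e-13). Ccnb2, cyclin B2, rose by 1.02 (SE 0.13, edgeR adjusted p = 7.45e-07), and Ccnb3, needed for exit from the first meiotic division, had 7.15 ± 1.45 CPM at GV and 6.67 ± 1.61 CPM at MII and was not called (edgeR adjusted p = 0.741). Over the 19 tested genes of this group 11 were called higher and 4 lower, and 7 and 6 with library totals. The largest rise was in Ccne1, cyclin E1, with 1.244, 2.65 and 4.71 CPM in GV oocytes and 7.81, 11.7 and 27.96 CPM in MII eggs, and it rose by 2.34 (SE 0.34) on the log2 scale (edgeR adjusted p = 7.33e-06). The Cdk1-binding subunits Cks1b and Cks2 rose by 2.11 and 1.43. Cdc25b, the phosphatase that activates Cdk1, varied from 2.53 to 48.6 CPM over the eggs against 59.2 to 92.4 CPM at GV, and fell by 1.78 (SE 0.39) on the log2 scale (edgeR adjusted p = 6.01e-04); without the 4 eggs of V853 the fall was 1.19. Wee2, the oocyte kinase that inhibits Cdk1, rose from 446 ± 50.01 CPM at GV to 736 ± 78.3 CPM at MII, or by 0.72 (SE 0.09, edgeR adjusted p = 9.14e-07).

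Of 25 genes of the Mos and MAP kinase cascade and the anaphase-promoting complex, 24 were tested, 9 (37.5%) were called higher and 12 (50%) lower, beside 30.1% and 33.3% of all tested genes. Map2k1, the kinase beneath Mos, had 119, 128 and 146 CPM in GV oocytes and 332, 385 and 444 CPM in MII eggs, and rose by 1.59 (SE 0.09) on the log2 scale (edgeR adjusted p = 1.54e-11), while its relative Map2k2 fell by 1.596 (edgeR adjusted p = 3.97e-06). Mapk3 had 249.5, 266 and 304 CPM in GV oocytes and 15.8, 32.1 and 59.0 CPM in MII eggs, and fell by 2.96 (SE 0.23) on the log2 scale (edgeR adjusted p = 2.17e-09). Fbxo43, the inhibitor of the anaphase-promoting complex that holds the egg at metaphase II, had 136, 147 and 162 CPM in GV oocytes and 388, 454 and 521 CPM in MII eggs, and rose by 1.62 (SE 0.08) on the log2 scale (edgeR adjusted p = 1.03e-11). Among subunits of that complex, Anapc10 rose by 2.14 (SE 0.20, edgeR adjusted p = 2.57e-08), Cdc26 by 1.79 and Cdc23 by 1.27, while Anapc2 fell by 2.37, Anapc11 by 1.67 and the activator Fzr1 by 2.45.

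Of 31 spindle and kinetochore genes, all tested, 17 were called higher and 9 lower, with a median of 0.69. With library totals 15 were higher and 11 lower, with a median of 0.31. Mad2l1, the spindle checkpoint protein Mad2, had 164, 227 and 264 CPM in GV oocytes and 605, 836.4 and 1068 CPM in MII eggs, and rose by 2.03 (SE 0.14) on the log2 scale (edgeR adjusted p = 3.59e-10). Bub1b, another checkpoint kinase-like protein, rose from 1188 ± 167 CPM at GV to 2126 ± 260.0 CPM at MII, or by 0.84 (SE 0.10, edgeR adjusted p = 6.17e-07). Aurkc, the Aurora kinase of germ cells, rose by 1.605 (SE 0.16, edgeR adjusted p = 4.34e-08) with no overlap, whereas Aurka and Aurkb had changes of -0.03 and 0.01 and were not called (edgeR adjusted p = 0.839 and 0.968). Subunits of a single kinetochore complex moved apart: Ndc80 and Nuf2 rose by 0.92 and 0.69, while Spc24, with 59.0, 75.7 and 82.8 CPM in GV oocytes and 3.57, 13.6 and 23.1 CPM in MII eggs, fell by 2.44 (SE 0.27, edgeR adjusted p = 2.41e-07) and Spc25 by 1.40 (SE 0.14, edgeR adjusted p = 3.35e-08). Of 16 genes of cAMP signalling and prophase arrest, 13 were tested, 7 were called higher and 1 lower, and 5 and 1 with library totals. Pde3a, the phosphodiesterase that lowers oocyte cAMP, had 412 ± 29.6 CPM at GV and 544 ± 113 CPM at MII, and its rise of 0.40 (edgeR adjusted p = 0.00621) was lost with library totals (0.02, edgeR adjusted p = 0.889), on RNA summed per female (edgeR adjusted p = 0.0832) and without V889 (edgeR adjusted p = 0.102). Its relative Pde3b rose by 1.52 (SE 0.13, edgeR adjusted p = 7.99e-09) with no overlap. Gpr3, the receptor that keeps cAMP high, had 72.4 ± 7.52 CPM at GV and 80.0 ± 17.6 CPM at MII and was not called (edgeR adjusted p = 0.381). Gnas, the stimulatory G protein subunit, fell by 0.36 (edgeR adjusted p = 0.047), a call lost on RNA summed per female (edgeR adjusted p = 0.133) and without egg V836_2 or any of the females V836, V856, V889 and V896 (edgeR adjusted p from 0.0763 to 0.193).

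Most genes of the zona pellucida and of the oocyte surface fell, while secreted growth factor genes differed from each other. Of 15 such genes, all tested, 9 were called lower (8 past 2-fold) and 4 higher, with a median of -1.96. Zp2 (chr7:120126772-120145291), a zona coat protein that binds sperm, had 1996, 3133 and 3626 CPM in GV oocytes and 283, 359.7 and 658 CPM in MII eggs, and fell by 2.87 (SE 0.17) on the log2 scale (edgeR adjusted p = 6.52e-11). Zp3 fell from 1251 ± 270.0 CPM at GV to 159 ± 60.5 CPM at MII, or by 2.98 (SE 0.20, edgeR adjusted p = 2.68e-10), and Zp1 by 2.08 (SE 0.19, edgeR adjusted p = 1.07e-08). Gja4, connexin 37 of the junctions with cumulus cells, had 996, 1247 and 1459 CPM in GV oocytes and 76.1, 120.2 and 195 CPM in MII eggs, and fell by 3.22 (SE 0.17) on the log2 scale (edgeR adjusted p = 9.41e-12). Izumo1r, the egg receptor for the sperm protein Izumo1, fell by 1.96 (SE 0.23, edgeR adjusted p = 4.81e-07), and the tetraspanin Cd9, also needed for fusion, fell by 2.80 (edgeR adjusted p = 8.19e-10). For these 6 genes GV and MII values did not overlap.

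Gdf9, a growth factor for cumulus cells, had 3760, 4198 and 5030 CPM in GV oocytes and 6938, 8355 and 8859 CPM in MII eggs, and rose by 0.94 (SE 0.08) on the log2 scale (edgeR adjusted p = 3.67e-09). Its partner Bmp15 had 2230, 2741 and 2952 CPM in GV oocytes and 1958, 2744 and 3951 CPM in MII eggs, with a change of 0.07 that was not called (edgeR adjusted p = 0.667). Fgf8, which stimulates cumulus glycolysis, fell from 107 ± 37.0 CPM at GV to 6.18 ± 2.71 CPM at MII, or by 4.10 (SE 0.29, edgeR adjusted p = 3.96e-10). Oosp1, an oocyte-secreted protein, rose by 1.58 (SE 0.14, edgeR adjusted p = 1.27e-08), and its relative Oosp2 fell by 2.16 (edgeR adjusted p = 1.04e-08). Kit, the receptor for Kit ligand, rose by 0.71 (SE 0.14, edgeR adjusted p = 1.68e-04) with overlapping values, a call lost with library totals (0.32, edgeR adjusted p = 0.068). Astl, the protease ovastacin that cleaves ZP2 after fertilization, had 676 ± 86.8 CPM at GV and 649.6 ± 158 CPM at MII and was not called (edgeR adjusted p = 0.74), but was called lower with library totals (-0.44, edgeR adjusted p = 0.0145).

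**Figure D3:**
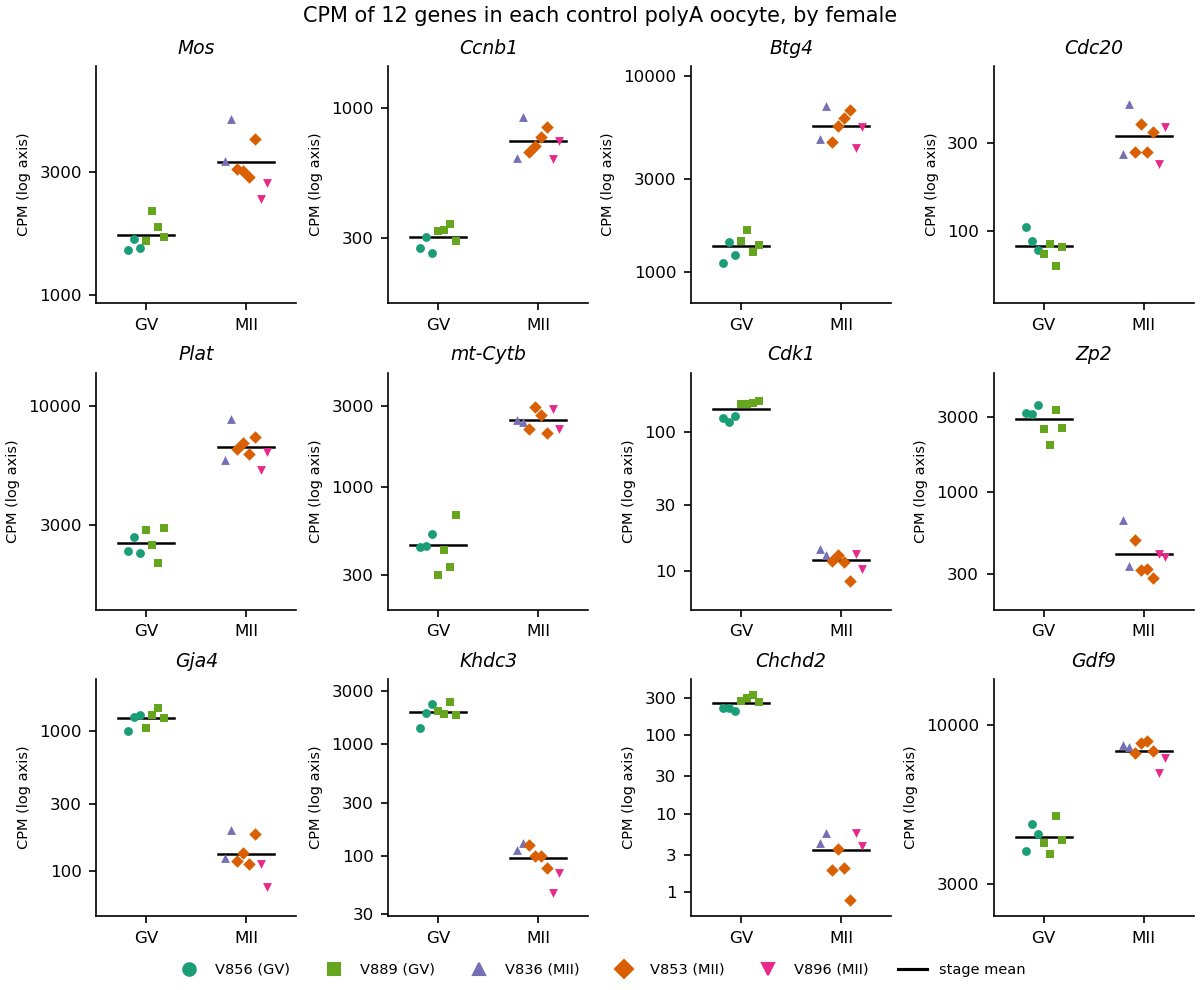
CPM (y axes, log scale) of 12 genes in each of the 7 GV oocytes and 8 MII eggs, with symbols and colours for the 5 females and a black bar for the mean of each stage. In all 12 panels shown every egg lies on one side of every GV oocyte: 7 genes are higher in eggs and 5 (Cdk1, Zp2, Gja4, Khdc3 and Chchd2) are lower.

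Of 8 genes of the subcortical maternal complex, an oocyte assembly that embryos need for cleavage, 6 were called lower and 1 higher, with a median of -1.36. Khdc3 (chr9:73101836-73104438) had 1419, 1935 and 2412 CPM in GV oocytes and 46.0, 98.8 and 131 CPM in MII eggs, a fall of 4.37 (SE 0.19, edgeR adjusted p = 1.44e-12) and of 20.7-fold. Its neighbour in the complex Ooep fell by 3.27 (edgeR adjusted p = 4.00e-12), Tle6 by 2.05 (SE 0.14, edgeR adjusted p = 3.53e-10), Padi6 by 1.40 (SE 0.17, edgeR adjusted p = 5.11e-07) and Nlrp5 by 0.65 (SE 0.12, edgeR adjusted p = 7.12e-05). Zbed3 was the member that rose, from 3189 ± 124 CPM at GV to 6881 ± 859 CPM at MII, or by 1.11 (SE 0.08, edgeR adjusted p = 5.24e-10). Nlrp4f had a change of 0.16 and was not called (edgeR adjusted p = 0.0664). Among 14 tested genes of oocyte identity 3 were called higher and 8 lower. Figla, the transcription factor that drives the zona genes, fell from 39.1 ± 8.16 CPM at GV to 2.19 ± 1.33 CPM at MII, or by 4.14 (SE 0.32, edgeR adjusted p = 1.51e-09), and Npm2, the oocyte nucleoplasmin, from 738 ± 112 CPM at GV to 156 ± 22.4 CPM at MII, or by 2.25 (SE 0.11, edgeR adjusted p = 5.47e-12). H1foo (also H1f8), the oocyte linker histone, had 2933, 3745 and 4820 CPM in GV oocytes and 10242, 12990 and 17402 CPM in MII eggs, and rose by 1.81 (SE 0.14) on the log2 scale (edgeR adjusted p = 9.97e-10). Ddx4 and Dppa3 were not called, with changes of 0.15 and 0.28 (edgeR adjusted p = 0.621 and 0.115), and Dppa3 was called higher without V889 (0.54, edgeR adjusted p = 0.0421).

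Of 19 genes of DNA methylation and epigenetic inheritance, 18 were tested, 7 (38.9%) were called higher and 4 (22.2%) lower, beside 30.1% and 33.3% of all tested genes, and 4 and 5 with library totals. Dnmt1, the maintenance methyltransferase, had 1559, 1840 and 2301 CPM in GV oocytes and 487, 639 and 1191 CPM in MII eggs, and fell by 1.45 (SE 0.15) on the log2 scale (edgeR adjusted p = 1.24e-07). Dnmt3l, the cofactor of imprinting in the growing oocyte, fell by 0.87 (SE 0.15, edgeR adjusted p = 4.16e-05), while Dnmt3b, a de novo methyltransferase, rose by 1.3 (SE 0.21, edgeR adjusted p = 1.75e-05). Tet3, the dioxygenase that oxidises the paternal genome in the zygote, rose from 1000 ± 90.2 CPM at GV to 1790 ± 217 CPM at MII, or by 0.84 (SE 0.09, edgeR adjusted p = 1.05e-07).

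Most genes of the ribosome and of the respiratory chain fell. Of 74 tested cytosolic ribosomal protein genes (91 in the list), 67 were called lower, 63 of them at least 2-fold, and 2 higher, with a median of -3.42 (-3.30 with the 3 members that had at most 3 counts in every egg set to that floor). Their summed level was 2629 to 3758 CPM in GV oocytes and 627 to 856.8 CPM in eggs. Rps3, of the small subunit, had 37.1, 44.2 and 52.5 CPM in GV oocytes and 0.888, 2.43 and 5.10 CPM in MII eggs, and fell by 4 (SE 0.27) on the log2 scale (edgeR adjusted p = 2.37e-10). Rplp0, of the large subunit stalk, fell by 3.76 (SE 0.28, edgeR adjusted p = 1.04e-09), or by 2.84 without the 4 GV oocytes of V889, with no overlap. Rps19 showed the largest fitted fall of the list, with 16.4, 21.6 and 24.3 CPM in GV oocytes and 0, 0.146 and 0.750 CPM in MII eggs. Rps27l, a relative of a ribosomal protein, was the largest rise, by 1.54 (SE 0.22, edgeR adjusted p = 5.37e-06), and Rpl15 rose by 0.70, a call lost on RNA summed per female (edgeR adjusted p = 0.0765). Ribosomal protein genes have many processed pseudogenes. The counting listed 0 reads without a unique alignment in every control library. How reads shared with pseudogenes were treated is not given in the sources used here, so single values are uncertain.

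Of 75 tested nuclear genes of the respiratory chain 68 were called lower, 64 at least 2-fold, and 4 higher, with a median of -3.22. Ndufs7 (chr10:80249121-80256794), a complex I subunit with an iron-sulfur cluster, had 83.8, 90.0 and 96.3 CPM in GV oocytes and 0, 0.427 and 2.04 CPM in MII eggs, and fell by 6.84 (SE 0.45) on the log2 scale (edgeR adjusted p = 2.00e-10). Its GV oocytes lay close together, and its lowest egg had no count. Cox7c, a small subunit of cytochrome c oxidase, had 10.3 to 22.5 CPM at GV and at most 3 counts in any egg, so no fold is given. Atp5b, the catalytic subunit of ATP synthase, rose from 194 ± 16.4 CPM at GV to 364 ± 52.3 CPM at MII, or by 0.91 (SE 0.10, edgeR adjusted p = 1.37e-07), as did Ndufa10, by 1.00 (SE 0.12, edgeR adjusted p = 9.04e-07). Ndufa4 had 160.1 ± 27.6 CPM at GV and 135 ± 49.7 CPM at MII and was not called (edgeR adjusted p = 0.329), though it was with library totals (-0.63, edgeR adjusted p = 0.0133).

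The mitochondrially encoded part of the same chain went the other way. Of 13 mitochondrial mRNAs, 7 passed the filter on low counts and all 7 were called higher, with a median of 2.32; the other 6 had at most 5 counts in any library. Their summed level was 1231 to 2673 CPM in GV oocytes and 5266 to 7866 CPM in eggs. mt-Cytb, cytochrome b of complex III, had 300.2, 442 and 682 CPM in GV oocytes and 2063, 2434 and 2946 CPM in MII eggs, and rose by 2.46 (SE 0.15) on the log2 scale (edgeR adjusted p = 8.08e-11). mt-Nd1, of complex I, rose by 2.32 (SE 0.15, edgeR adjusted p = 1.89e-10) and mt-Co1, of cytochrome c oxidase, by 1.05 (SE 0.16, edgeR adjusted p = 9.69e-06). Nuclear copies of mitochondrial genes exist. The counting listed 0 reads without a unique alignment, and how reads shared with such copies were treated is not given in the sources used here.

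Of 35 tested proteasome genes 25 were called lower and 7 higher, with a median of -1.23. Psmb5, a catalytic core subunit, fell from 26.0 ± 2.48 CPM at GV to 0.605 ± 0.547 CPM at MII, or by 5.37 (SE 0.45, edgeR adjusted p = 4.84e-09). Psmd1, a scaffold subunit of the regulatory particle, rose from 161 ± 15.0 CPM at GV to 642 ± 137 CPM at MII, or by 1.99 (SE 0.12, edgeR adjusted p = 8.19e-11). Psma1 had 290.5 ± 75 CPM at GV and 289.9 ± 52.2 CPM at MII and was not called (edgeR adjusted p = 0.989), but was called higher without the GV oocytes of V889 (0.44, edgeR adjusted p = 0.0379) and lower with library totals (-0.38, edgeR adjusted p = 0.0319). In pyruvate and tricarboxylic acid metabolism 8 of 25 tested genes (32%) were called higher and 11 (44.0%) lower, the first near the 30.1% of all tested genes and the second beside 33.3%. Ldhb, lactate dehydrogenase B, had 2315, 2679 and 3163 CPM in GV oocytes and 510.2, 895 and 1305 CPM in MII eggs, and fell by 1.51 (SE 0.17) on the log2 scale (edgeR adjusted p = 2.25e-07). The subunits of mitochondrial isocitrate dehydrogenase differed, with Idh3g falling from 33.6 ± 6.05 CPM at GV to 1.23 ± 1.28 CPM at MII, or by 4.77 (SE 0.55, edgeR adjusted p = 3.70e-07), Idh3b falling by 2.09 and Idh3a rising by 0.46, a call lost on RNA summed per female (edgeR adjusted p = 0.114). Cytosolic Idh1 rose by 1.42 (SE 0.14, edgeR adjusted p = 4.37e-08). Pdha1, of pyruvate dehydrogenase, fell by 0.52 (edgeR adjusted p = 0.00458), a call lost on RNA summed per female (edgeR adjusted p = 0.0733) and without V889 (edgeR adjusted p = 0.11).

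Splicing factor genes rose more often than they fell. Of 53 tested genes 32 were called higher and 11 lower (24 and 12 with library totals, 26 and 5 on RNA summed per female), with a median of 0.64. Srsf3 rose from 31.9 ± 7.46 CPM at GV to 53.8 ± 6.71 CPM at MII, or by 0.75 (SE 0.15, edgeR adjusted p = 2.22e-04). The Sm core proteins, which form 1 ring around spliceosomal RNAs, spread over the whole range of the list: Snrpd3 rose by 1.55 (SE 0.19, edgeR adjusted p = 6.90e-07), Snrpg by 1.45 and Snrpe by 1.236, while Snrpd2 fell from 37.5 ± 7.99 CPM at GV to 0.718 ± 0.681 CPM at MII, or by 5.69 (SE 0.47, edgeR adjusted p = 3.35e-09), and Snrpb fell by 1.51, a call lost on RNA summed per female (edgeR adjusted p = 0.0936).

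Among named, called genes with an average log2 CPM of at least 4 whose stages did not overlap and which were also called on RNA summed per female, the largest rises were in Hmgn3, Cyth1, Omt2b, Isl1 and mt-Nd2. Hmgn3, a nucleosome-binding protein, differed between the GV females. It had 0.393 to 1.15 CPM in V856, 17.9 to 20.9 CPM in V889 and 37.3 to 179 CPM in eggs, and rose by 2.94 (SE 0.64) on the log2 scale (edgeR adjusted p = 5.47e-04). Its rise was 2.18 without V856 and 7.02 without V889. Cyth1, an exchange factor for ARF GTPases, had 6.36, 9.51 and 29.01 CPM in GV oocytes and 45.5, 93.5 and 158 CPM in MII eggs, and rose by 2.76 (SE 0.32) on the log2 scale (edgeR adjusted p = 4.02e-07), with 3.52 and 2.13 without the same 2 females. Omt2b, an oocyte maturation gene with a close copy in the genome, had 436, 574 and 725 CPM in GV oocytes and 2693, 3354 and 5344 CPM in MII eggs, and rose by 2.66 (SE 0.16) on the log2 scale (edgeR adjusted p = 5.64e-11). Isl1, a homeobox factor, rose by 2.59 (SE 0.48, edgeR adjusted p = 1.03e-04) from 4.86 CPM as GV median.

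The largest falls by the same rule were in Ccnd2, Ndufs7, Ndufa7, Chchd2 and Bola1. Ccnd2, cyclin D2, which granulosa cells express strongly, had 70.3 to 139.8 CPM in the GV oocytes of V856, those with Inha and Hsd17b1 counts, and 7.67 to 16.9 CPM in V889. No egg held more than 3 of its counts, so no fold is given; it was called lower with and without V856, and the part of granulosa RNA in its level was not tested. Chchd2, a mitochondrial intermembrane protein, had 205, 266 and 327 CPM in GV oocytes and 0.790, 3.68 and 5.67 CPM in MII eggs, and fell by 6.24 (SE 0.27) on the log2 scale (edgeR adjusted p = 8.17e-13). Ndufa7 fell from 68.1 ± 13.7 CPM at GV to 0.731 ± 0.727 CPM at MII and Bola1, of iron-sulfur cluster assembly, from 55.2 ± 9.50 CPM at GV to 0.709 ± 0.866 CPM at MII, a change of -6.21 that was -7.79 without the 4 eggs of V853. By level, which is not adjusted for transcript length, the called falls of at least 2-fold with the highest GV CPM were Nlrp14, Padi6, Zp2, Ldhb and Tle6, and the rises with the highest MII CPM were H1foo, Spin1, Zbed3, Oas1d and Plat. Nlrp14 fell from 5312 ± 388 CPM at GV to 2227 ± 405 CPM at MII, or by 1.25 (SE 0.10, edgeR adjusted p = 3.67e-09). Spin1, a spindle-associated histone reader, rose from 3941 ± 579 CPM at GV to 9259 ± 1064 CPM at MII and Oas1d, an oligoadenylate synthetase relative of oocytes, from 1883 ± 169.6 CPM at GV to 6819 ± 1045 CPM at MII.

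Few genes differed after 3 hours in culture. Between GV3h and GV controls 66 of 12716 genes were called (0.519%), 45 higher and 21 lower. The count was 147 with DESeq2, 2 on RNA summed per female, 376 without V856 and 207 without V889. The median absolute log2 change was 0.14 at 3 hours and 0.89 at MII, both against the same GV oocytes. Of the 107 genes named by rule, 3 were called at 3 hours. Ccnd2 was lower (edgeR adjusted p = 0.00391), with lowest, median and highest CPM of 8.54, 19.4 and 165 at GV and 0.194, 2.701 and 12.2 at GV3h, scaled within that comparison. mt-Cytb fell by 0.78 at 3 hours (edgeR adjusted p = 0.0212) and rose by 2.46 at MII, and Khdc3 rose by 0.43 (edgeR adjusted p = 0.0498) and fell by 4.37 at MII. Against the GV3h oocytes of 3 other females, 8204 of 12235 genes were called at MII (67.1%). In that comparison Btg4 changed by 2.02, Mos by 0.85, Cdk1 by -3.49, Zp2 by -2.88 and Ndufs7 by -6.73.

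Libraries made without poly(A) selection were compared between the same stages. In RiboMinus controls 5042 of 16340 genes were called between MII and GV (30.9%), 15% higher and 15.8% lower, with 3 eggs of 1 female, and 3098 were called without the 4 GV oocytes of V1132. Of the 3757 genes called higher in polyA libraries and tested in both, 445 (11.8%) were called higher in RiboMinus and 1150 (30.6%) lower. Of the 4167 called lower, 482 (11.6%) were lower and 1198 (28.8%) higher. Among all genes tested in both, genes called higher in polyA made up 52.8% of the 2178 called lower in RiboMinus, and genes called lower in polyA made up 52.9% of the 2263 called higher. Among genes not called in polyA libraries 13.6% were higher and 11.99% lower in RiboMinus. Across 12477 genes Spearman's rho between the 2 log2 changes was -0.239. The library types share no oocyte or female. Each comparison was scaled with TMM within its own libraries, and the difference between the library types was not tested.

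**Figure D4:**
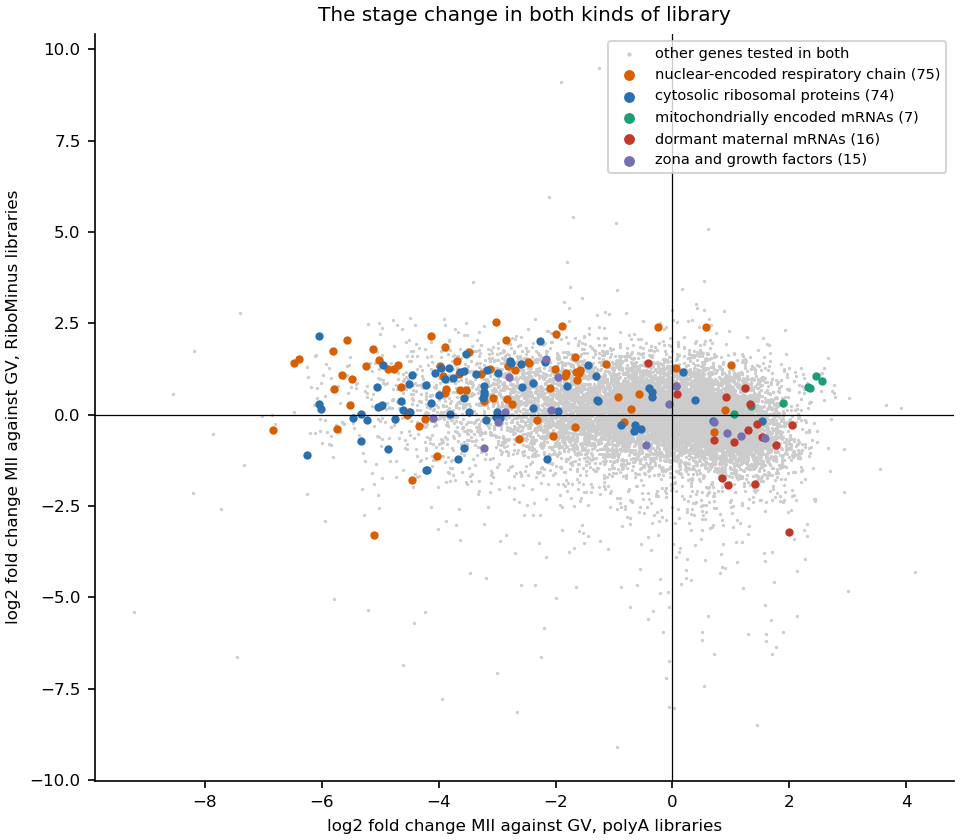
Log2 fold change between MII and GV in polyA libraries (x axis) and in RiboMinus libraries (y axis) for 12477 genes tested in both, with members of 5 lists in colour. Respiratory chain and ribosomal protein genes spread to the left with most RiboMinus values near or above 0, and 11 of the 16 dormant maternal mRNAs lie to the right and under 0.

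The dormant messages were among the genes with opposite values. Of the 16, 9 were called lower and 4 higher in RiboMinus libraries, with a median of -0.51. Over all genes tested in RiboMinus libraries 15.8% were called lower and 15% higher. Cdc20 changed by -3.22 (SE 0.26, edgeR adjusted p = 2.65e-08) there, Mos by -1.93 (SE 0.14, edgeR adjusted p = 1.22e-08), Plat by -1.91 (SE 0.15, edgeR adjusted p = 2.66e-08) and Bub1b by -1.73 (SE 0.14, edgeR adjusted p = 3.57e-08), each higher in polyA libraries. Btg4 and Cnot7 had RiboMinus changes of -0.27 and -0.25 and were not called (edgeR adjusted p = 0.105 and 0.135), while Dazl was called higher in both kinds of library (0.72 in RiboMinus, edgeR adjusted p = 3.09e-04).

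Nuclear respiratory chain genes had a RiboMinus median of 1.09, with 47 of 75 called higher and 4 lower. Ribosomal protein genes had one of 0.42, with 26 of 74 higher and 5 lower. These stand beside 15% higher and 15.8% lower over all genes tested in RiboMinus libraries. Chchd2 changed by 1.03 (SE 0.22, edgeR adjusted p = 0.00114), Cdk1 by 1.55 (SE 0.12, edgeR adjusted p = 2.41e-08), Mapk3 by 1.25 (SE 0.12, edgeR adjusted p = 1.53e-07) and Ldhb by 2.15 (SE 0.15, edgeR adjusted p = 4.42e-09), all 4 lower in polyA libraries. The zona genes Zp1, Zp2 and Zp3 changed by 0.12, 0.07 and -0.19 and were not called in RiboMinus libraries (edgeR adjusted p = 0.466, 0.736 and 0.35). Some genes were lower in both: Cpeb1 changed by -1.66 (SE 0.15, edgeR adjusted p = 7.82e-08), Khdc3 by -1.70 (SE 0.20, edgeR adjusted p = 2.61e-06), Gja4 by -0.91 (SE 0.14, edgeR adjusted p = 5.88e-05) and Dnmt1 by -0.74 (SE 0.13, edgeR adjusted p = 1.77e-04). Of the mitochondrial mRNAs, mt-Cytb was higher in both, by 1.05 (SE 0.27, edgeR adjusted p = 0.00545) in RiboMinus, and mt-Co1 was not called there, at 0.01 (SE 0.22, edgeR adjusted p = 0.979).

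The median change differed with the length and composition of the annotated transcript. In the shortest of 5 equal groups of 10155 transcripts (365 to 1832 bases) the median polyA change was -0.99 and 54.8% of genes were called lower, and in the longest group (above 5157 bases) it was 0.30 and 14.1%. Short transcripts outside the ribosomal, respiratory and proteasome lists had a median of -0.89 over 1943 genes. In RiboMinus libraries the shortest and longest groups had medians of 0.37 and -0.18. Genes of the lowest of 5 groups by GC content had a polyA median of 0.38 and those of the highest -0.83. These are medians across genes, and length, composition and 3′ end features go together.

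Eggs held fewer detected genes than GV oocytes. At a common depth of 5535240 counts GV oocytes had 18735 ± 539 genes with a count (SD, n = 7) and eggs 15153 ± 817 (SD, n = 8). The groups did not overlap, with 17793 as the lowest GV oocyte and 15975 as the highest egg (two-sided exact permutation test over oocytes, p = 0.000155, adjusted over 2 measures 0.000155, the smallest value 6435 arrangements allow). The 100 genes with the most counts in each library held 18.7 ± 0.399% of counts at GV and 25.4 ± 0.976% at MII, again without overlap and with the same exact permutation p = 0.000155. Over female means (2 against 3) both differences kept their direction, and the exact permutation p was 0.1, the smallest that 10 arrangements allow. The common biological coefficient of variation was 0.247 over GV oocytes and 0.496 over eggs, and 0.197 and 0.478 within females. Mean log2 levels of the 2 GV females differed at least 2-fold for 2.95% of genes, those of pairs of MII females for 5.81% to 12.9%, and those of a GV and an MII female for 41.3% to 45.9%.

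**Figure D5:**
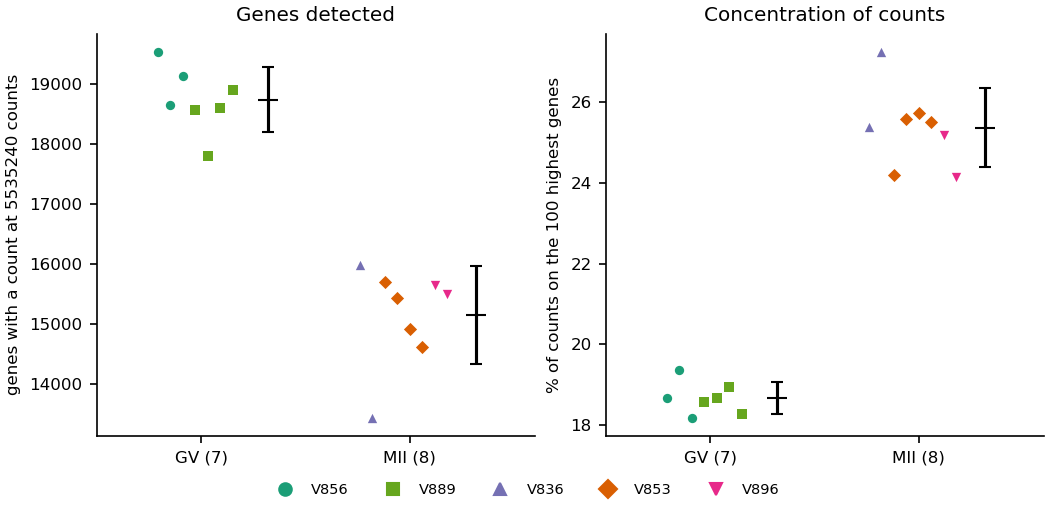
Genes with a count at a common depth (left) and the percent of counts on the 100 genes with the most counts (right) in each of the 7 GV oocytes and 8 MII eggs, coloured by female, with the stage mean and SD as black bars. The y axes do not start at 0; the stages do not overlap in either panel, and egg V836_2 is the lowest on the left (13441 genes) and the highest on the right.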

How the data were processed

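Each library is 1 control oocyte or egg. The deposited values are raw gene counts (Ensembl identifiers) that the authors made from reads; per the submitters' processing notes the tools were cutadapt 2.5, FastQC 0.11.8, STAR 2.7.2a, SAMtools 1.9, HTSeq 0.9.1, R 3.5.1 and DESeq2 1.24.0, with mm10. Per the labels' protocols, polyA RNA was caught on oligo(dT) beads and amplified, and RiboMinus RNA was primed with random hexamers; amplification and duplicates can affect low counts. Annotation release, strand setting and treatment of duplicate reads are not given in the sources used here. HTSeq's summary lines stayed out of all tests; no-feature reads were 9.88% to 11.2% of GV and 5.90% to 6.68% of MII reads counted.

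Genes were filtered with filterByExpr, scaled with TMM and tested with edgeR 4.0.16's quasi-likelihood test (R 4.3.3), with Benjamini-Hochberg adjustment over all genes tested and a call at an adjusted p under 0.05; the script was tested on simulated data. Standard errors are the size of the log2 fold change divided by the square root of F. Only the groups compared entered a fit. Summed list levels are CPM of library totals. Coordinates and 3′ ends are GENCODE M21 on GRCm38, from the APPRIS-principal, then longest transcript. Alternatives were DESeq2 1.42.0, other scalings and filters, a fit to 1 sum of counts for each female, voom of limma 3.58.1 with a random block for females, and leaving out females or eggs.

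Named genes are the 5 largest rises and falls (average log2 CPM of at least 4, no predicted genes, stages not overlapping, called on RNA summed per female), the 5 most abundant called falls and rises of at least 2-fold, key list members, and each list's largest called rise and fall; other list members given with values were chosen after their values were seen. The members, gene lists and rules were chosen with earlier results of these data known. Libraries of Exosc10 knockout oocytes were not analysed here beyond 1 alternative fit over all polyA groups.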

Additional observations from a re-analysis of the deposited data

Results flagged for a closer look

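Among 214 sets of values (107 named genes in 2 stages), 11 held 1 oocyte set apart from the rest of its stage by Dixon's criterion, where chance gives about 1 in 20 sets. Egg V836_2 was the high one in 5 of them: Zp3 at 294.3 CPM (the next egg at 170 CPM), Ccnb2 at 333.3 CPM (230.3 CPM), Pabpn1l at 2336 CPM (1341 CPM), Dppa3 at 3255 CPM (2229 CPM) and Snrpd3 at 558.4 CPM (370.7 CPM). Egg V836_1, of the same female, was high for Dnmt1 at 1191 CPM (803.9 CPM) and for Ccnd2 at 0.4501 CPM (0.148 CPM), which is at most 3 counts. Egg V853_4 was high for Pde3b at 341 CPM (256 CPM). Among GV oocytes, V856_1 was high for Map2k1 at 146 CPM (130.3 CPM), V856_4 was high for Gnas at 156.6 CPM (125.4 CPM), and V889_2 was low for Astl at 489.6 CPM (671.2 CPM).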

How the results depend on the processing

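No paired analysis was possible because each female gave oocytes of 1 stage. Of 7961 genes called between MII and GV, DESeq2 gave 8214, DESeq2 size factors 7948, library totals 7942, no filter 9961, a filter at a mean of 50 counts 6482, sums per female 6681, voom with a random block for females 7795 and all 6 polyA groups in 1 fit 9570. Leaving out 1 female gave 6324 (V889) to 8287 (V836), and leaving out egg V836_2, chosen after seeing the data, 8159. Genes called higher went from 3782 to 2507 with library totals. In each of DESeq2, DESeq2 size factors, library totals, sums per female and voom, 5573 genes kept their call and direction. Of the 107 named genes, 8 lost their call on counts summed per female, 4 with library totals and 8 without V889; Psma1, not called at 0.00, was 0.44 without V889 (edgeR adjusted p = 0.0379). Between GV3h and GV the 66 calls became 147 with DESeq2, 2 on counts summed per female, 376 without V856 and 207 without V889; the cause was not tested. RiboMinus calls went from 5042 to 3098 without V1132 and were 4586 to 4762 without 1 MII egg. Over female means the difference in detected genes was -3631.7 and that in the share of the top 100 genes 6.74 percentage points, each with an exact permutation p = 0.1, the smallest 2 against 3 females allow. Depth limits the falls: in 48 tested genes no egg had more than 3 counts, so their fold changes depend on the prior count.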
